A study of Mus musculus with 12 samples.

Results

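The genes described here encode amino acid and neurotransmitter transporters of 7 families of solute carriers. They were chosen by name: every gene of the deposited tables whose symbol places it in family Slc1, Slc6, Slc7, Slc17, Slc18, Slc36 or Slc38, with the single exception of Slc1a3. This gave 67 of the 27179 genes, namely 6 of family Slc1, 19 of Slc6, 15 of Slc7, 9 of Slc17, 3 of Slc18, 4 of Slc36 and 11 of Slc38. A gene was tested where its mean reached 0.5 CPM (counts scaled to the size of the library) in any group, which left 44 transporters among 15542 genes. Their RNA was measured in the dorsal cortex of C57BL/6 mouse embryos at embryonic days E14.5 and E16.5. Each age has 3 wild-type (WT) libraries and 3 from embryos with a conditional knockout (cKO) of Ash2l, a core subunit of the complexes that methylate lysine 4 of histone H3. Recombination in the cKO is driven by D6-Cre, which is known to act in the dorsal telencephalon, so cells that enter this tissue from elsewhere, such as interneurons and blood vessels, lie outside its domain. The labels state no allele or agent shared with the WT embryos, and they do not say which exons are deleted or whether a library holds 1 embryo or several. Within each age the letters A, B and C follow the first number in the sample titles, whose meaning the labels do not give, so that p-values rest on a spread among libraries that can be partly technical.

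Transporters of these families move amino acids, and transmitters derived from them, across membranes. The Slc1 carriers take up glutamate or exchange neutral amino acids, and the Slc6 carriers use the sodium gradient to take up GABA, glycine, monoamines, taurine, creatine and neutral amino acids. Carriers of Slc7 move cationic amino acids or pair with a heavy chain to exchange larger ones, while those of Slc17 and Slc18 load glutamate, nucleotides and amines into vesicles. Members of Slc38 supply glutamine to neurons and glia, and members of Slc36 together with Slc38a9 sit largely on lysosomes, where amino acid supply is read by the mTORC1 kinase.

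Library totals ran from 14318147 to 24719047 counts. Ash2l lay between 118 and 143 CPM in the 6 WT libraries and between 46.9 and 60.6 CPM in the 6 cKO libraries. The dorsal cortex markers Emx1, Emx2, Tbr1, Fezf2 and Neurod6 were present in every library, with summed levels of 830 to 1291 CPM. Some libraries stood apart in markers of other tissues: 6 choroid plexus markers summed to 480 CPM in WT A at E14.5 and to 623 CPM in WT C at E16.5, against 58.5 CPM or less elsewhere. Meningeal markers (6 genes) summed to 340 CPM in cKO A at E14.5, against 45.3 CPM or less in the others, and markers of GABAergic and ventral cells (8 genes) to 307 CPM in WT B at E14.5. Among the E14.5 libraries cKO A was also highest in endothelial markers (178 CPM, others 110 or less) and red blood cell markers (643 CPM, others 314 or less). It was lowest in pan-neuronal markers (2190 CPM, others 3425 or more) and in the dorsal markers (830 CPM, others 1121 or more). Xist and 4 Y-linked genes showed that at E14.5 all 3 WT libraries were male and all 3 cKO libraries female, so that genotype and sex cannot be told apart within that age. At E16.5 each genotype held 1 female and 2 male libraries.

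In WT cortex the carriers of family Slc38 led. Levels per transcript length (TPM, computed here from counts and exon length) of Slc38a2, a sodium-coupled carrier of small neutral amino acids, were 214 ± 14.4 TPM at E14.5 and 216 ± 7.95 TPM at E16.5 (SD, n = 3). Slc38a1, a neuronal glutamine carrier, followed with 164 ± 7.85 TPM and 182 ± 3.72 TPM (SD, n = 3). The ranges of these genes overlapped neither with each other nor with any other transporter at either age. Slc38a10 came next in that family with 51.1 TPM at E14.5 and 58.3 TPM at E16.5.

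The leading members of the other families lay close together. In family Slc6 the highest WT means were those of Slc6a15, a neuronal carrier of branched-chain amino acids and proline (47.2 TPM at E14.5 and 86.9 TPM at E16.5), of the taurine carrier Slc6a6 (62.4 and 82.3 TPM) and of Slc6a17, a vesicular carrier of neutral amino acids (48.4 and 63.6 TPM). In family Slc7 they were Slc7a6 (68.4 and 63.9 TPM), the large neutral amino acid exchanger Slc7a5 (49.9 and 63.7 TPM) and the arginine carrier Slc7a1 (30.8 and 40.4 TPM). In family Slc17 the vesicular glutamate carriers Slc17a6 (65.4 and 65.2 TPM) and Slc17a7 (49.2 and 43.4 TPM) stood above the lysosomal sialic acid carrier Slc17a5 (19.3 and 22.4 TPM). Among these means most neighbours were not separated: at E16.5 the ranges of Slc17a6, Slc7a6, Slc7a5 and Slc6a17 overlapped in turn. The family Slc1 was led by the serine carrier Slc1a4 (44.2 and 60.0 TPM), Slc1a2 (29.1 and 47.2 TPM) and Slc1a1 (27.1 and 52.8 TPM). In family Slc36, Slc36a4 (51.0 and 57.4 TPM) exceeded Slc36a1 (13.5 and 16.01 TPM). The only tested gene of Slc18, the vesicular monoamine carrier Slc18a2, had 4.61 ± 4.76 TPM at E14.5 and 0.369 ± 0.214 TPM at E16.5 (SD, n = 3).

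**Figure D1:**
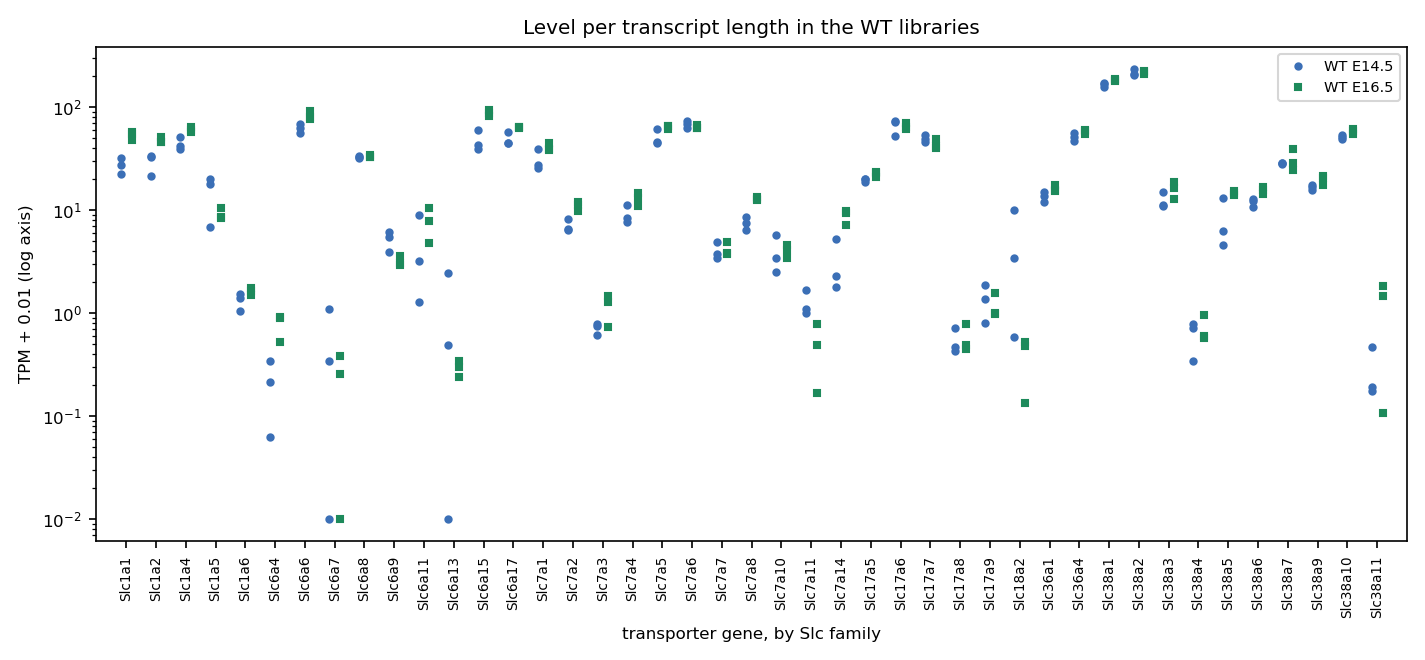
Level per transcript length (TPM with 0.01 added, log axis) of 43 of the 44 tested transporters in each WT library, circles for E14.5 and squares for E16.5, ordered by family. Every point of Slc38a1 and Slc38a2 lies at 156 TPM or above, while Slc6a15, the next at E16.5, reaches at most 92.7 TPM there.

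The first comparison asks how these transporters differ between cKO and WT at E16.5. Of the 44 tested, 2 were higher in cKO and 6 lower at an adjusted p under 0.05 (edgeR quasi-likelihood test, Benjamini-Hochberg over all 15542 genes). These 8 are 18.2% of the transporters, and 15.2% of all genes tested passed the same test, so that the share called lies near the background. The genes that rose were Slc1a5, a glutamine exchanger, and Slc6a9, a glycine carrier, which is 4.55% of the transporters against 5.82% of all genes. Those that fell were Slc1a1, Slc6a4, Slc6a11, Slc6a15, Slc7a14 and Slc17a7, or 13.6% against 9.37%. Log2 fold changes of cKO over WT were below 0 for 31 of the 44 transporters (70.5%) and for 47.5% of all genes, and for 28 of 44 with scaling by library totals alone. Their median was -0.17, with 0.02 for all genes, and 18 had an unadjusted p under 0.05, where 31.1% of all genes did. The 3 cKO libraries were all lower than the 3 WT libraries for 14 transporters, or 31.8% against 17.9% of all genes, and above them for 7 transporters, or 15.9% against 19.1%.

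Markers of neurons moved in the same libraries. Of 10 pan-neuronal markers 7 fell at E16.5 and 0 rose, where 9.37% of all genes fell and 5.82% rose. Their summed level ran from 5341 to 5645 CPM in WT and from 3858 to 4439 CPM in cKO, with no overlap. Of 8 markers of apical progenitors Hes5, Nes and Hopx rose. The sums of these 8 overlapped, with 1112 to 1435 CPM in WT and 1305 to 1774 CPM in cKO. At E14.5 Nefm of the first list fell and Hopx of the second rose, where 1.6% of all genes fell and 0.328% rose. All 10 pan-neuronal markers had a change below 0 at that age (median -0.55), as did 46.7% of all genes. An unadjusted p under 0.05 in edgeR was found for 7 of these 10, for 2 of the 8 progenitor markers and for 20.0% of all genes. Of the 5 dorsal markers Fezf2 and Neurod6 fell at E16.5, by 0.24 and 0.29, while Emx1, Emx2 and Tbr1 were not called. Changes of the 5 dorsal markers had a median of -0.08 and reached 0.25. Their part in the transporter differences was not tested, and in bulk tissue fewer cells of a type and less RNA per cell cannot be told apart.

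**Figure D2:**
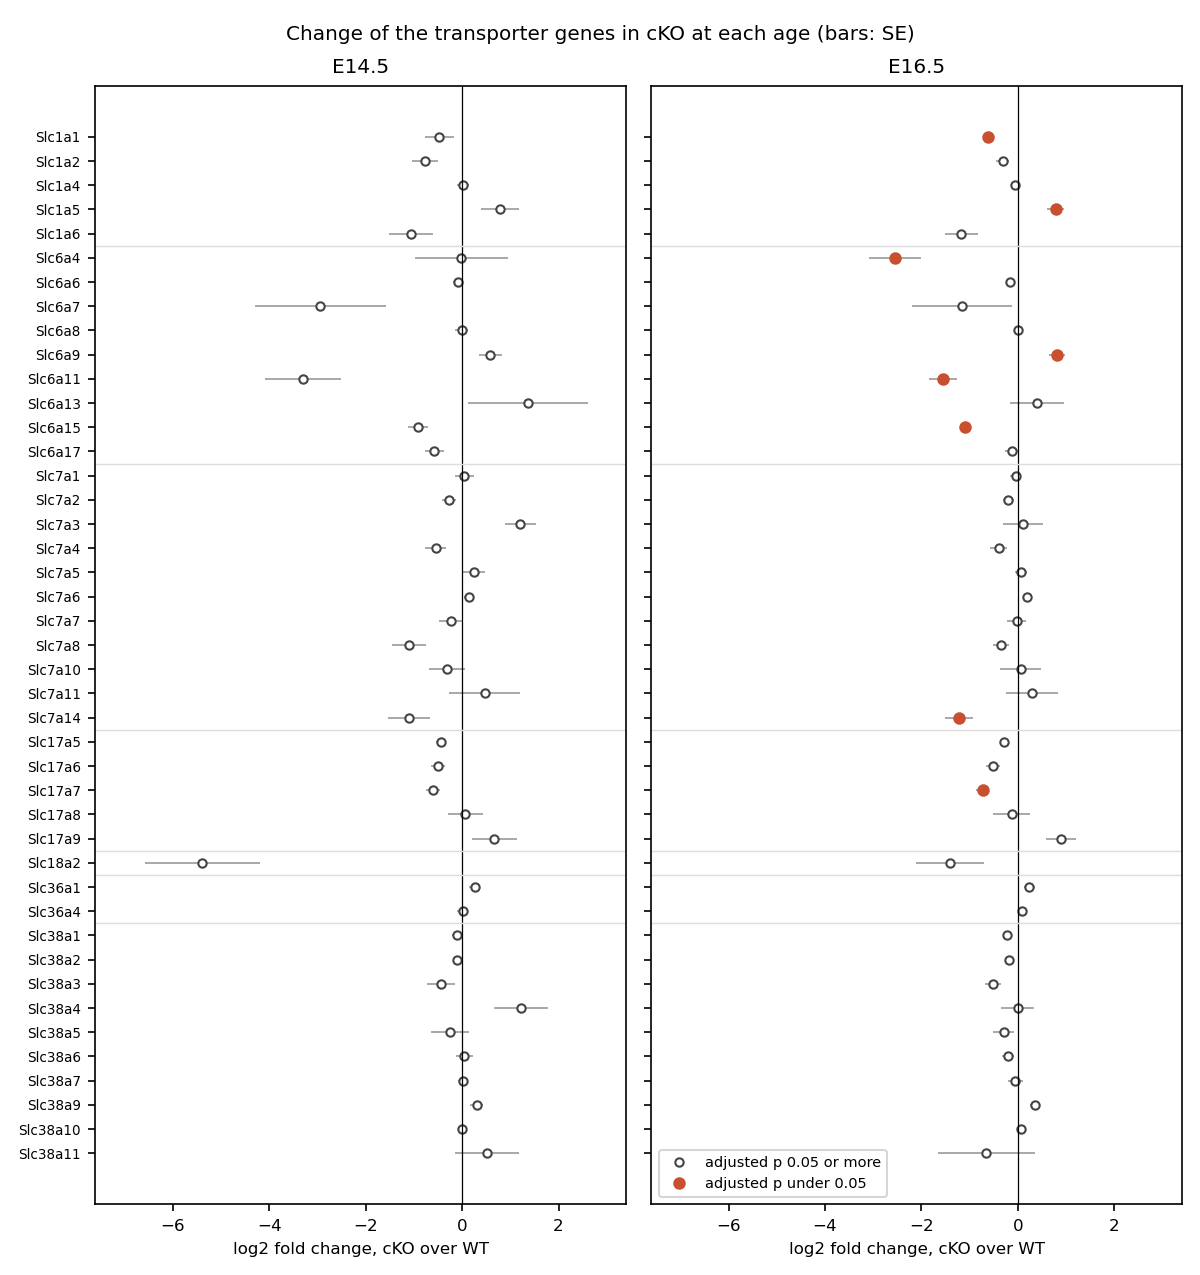
Log2 fold change of cKO over WT for 43 of the 44 tested transporters at E14.5 (left) and E16.5 (right), with the standard error of each as a bar and grey lines between families. Filled points mark an adjusted p under 0.05, of which there are 0 at E14.5 and 8 at E16.5, 6 of them left of the line at 0.

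Among the excitatory amino acid transporters, which clear glutamate from the extracellular space, 1 of 3 tested passed at E16.5. Slc1a1, the neuronal glutamate and cysteine carrier (Entrez 20510, plus strand of chr19:28835166-28913960 in mm10, 12 exons), measured 65.8, 68.3 and 58.3 CPM in WT A, B and C and 44.3, 44.4 and 37.6 CPM in cKO A, B and C. Every cKO library lay below every WT library. The gene fell by 0.61 on the log2 scale (SE 0.0984, edgeR adjusted p = 0.00653), and the call was kept in each of the 6 fits that left out 1 library. It was lost in the fit of all 12 libraries (adjusted p = 0.134). Slc1a2, the main astrocytic glutamate carrier of later stages, measured 179, 201 and 180 CPM in WT and 141, 186 and 125 CPM in cKO, with an overlap at cKO B and a change of -0.32 that did not pass (adjusted p = 0.167). Slc1a6, a carrier best known from Purkinje cells, was much scarcer, at 1.01, 1.10 and 1.18 CPM in WT and 0.585, 0.466 and 0.396 CPM in cKO. Its groups did not overlap and its change of -1.17 came close to the threshold (adjusted p = 0.0522).

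The neutral exchangers of the same family differed from each other. Slc1a5 (Entrez 20514, plus strand of chr7:16781346-16798274, 9 exons), which brings glutamine into dividing cells, measured 7.65, 7.49 and 9.39 CPM in WT and 11.6, 14.3 and 16.51 CPM in cKO. All cKO libraries were higher, with a log2 fold change of 0.78 (SE 0.167, adjusted p = 0.0198). The adjusted p was 0.0713 without WT A, 0.0875 without WT B and 0.0777 without cKO B. It was 0.163 in the fit of all 12 libraries. The log2 fold change lay between 0.66 and 0.90 in the 6 fits that left out 1 library. In the fits without WT A, WT B or cKO B, all genes called fell from 2361 to 1121, 982 and 996. Slc1a4 lay at 77.2 ± 3.38 CPM in WT against 74.2 ± 4.72 CPM in cKO (SD, n = 3), a change of -0.06 (SE 0.0759) that did not pass.

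The vesicular glutamate carriers fill synaptic vesicles of excitatory neurons. Slc17a7 (Entrez 72961, plus strand of chr7:45163921-45176139, 12 exons), the main form of the mature cortex, measured 40.4, 46.7 and 38.3 CPM in WT and 21.4, 24.9 and 29.5 CPM in cKO. The groups did not overlap, and the gene fell by 0.73 on the log2 scale (SE 0.134, adjusted p = 0.0106). Without WT B the adjusted p was 0.0531 and without cKO B 0.0540, while the log2 fold changes were -0.64 and -0.73. Slc17a6, the form that dominates early and in subcortical neurons, measured 90.3, 86.9 and 99.8 CPM in WT and 50.2, 65.5 and 78.9 CPM in cKO. Its libraries were separated too, and its change of -0.52 missed the threshold by little (SE 0.150, adjusted p = 0.0537). DESeq2 called it (adjusted p = 0.0132), and so did the authors' deposited table (log2 fold change -0.48, adjusted p = 0.0144). Slc17a8, found mainly in scattered non-glutamatergic neurons, lay between 0.585 and 1.13 CPM and did not pass. Of the remaining members of that family, Slc17a5 had 23.5 ± 1.33 CPM in WT against 19.4 ± 0.920 CPM in cKO (SD, n = 3; change -0.29, adjusted p = 0.0784), and Slc17a9, which loads nucleotides, was 0.837 ± 0.231 and 1.56 ± 0.0507 CPM (change 0.89, adjusted p = 0.0887).

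Carriers of inhibitory transmitters went both ways. Slc6a11, which clears GABA (Entrez 243616, plus strand of chr6:114131241-114249886, 14 exons), measured 14.02, 10.2 and 6.41 CPM in WT and 4.20, 3.01 and 3.24 CPM in cKO. Even the lowest WT library stood above the highest cKO library. The log2 fold change was -1.55 (SE 0.294, adjusted p = 0.0122), with an adjusted p of 0.0511 without WT B, 0.0624 without cKO B and 0.0971 in the fit of all 12 libraries. The 8 GABAergic and ventral markers summed to 126 to 180 CPM in WT and 109 to 178 CPM in cKO at this age, and 0 of the 8 passed in edgeR or had an unadjusted p under 0.05. The 7 markers of astrocytes and oligodendrocytes summed to 22.5 to 30.4 CPM in WT and 16.2 to 34.9 CPM in cKO, and 0 of the 6 tested passed in edgeR or had an unadjusted p under 0.05. Slc6a9 (Entrez 14664, plus strand of chr4:117835258-117869305, 14 exons), which takes up glycine, measured 3.08, 3.78 and 3.28 CPM in WT and 5.64, 6.48 and 5.68 CPM in cKO. Here all cKO libraries were above all WT libraries. The gene rose by 0.81 (SE 0.173, adjusted p = 0.0198), a call kept in 2 of the 6 fits that left out 1 library: the adjusted p was 0.0745 without WT A, 0.0525 without WT B, 0.0621 without WT C and 0.0867 without cKO B. The taurine carrier Slc6a6 (change -0.16) and the creatine carrier Slc6a8 (change -0.01, SE 0.0743) did not pass.

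Slc6a15 showed the smallest p-value of all the transporters at E16.5 (Entrez 103098, plus strand of chr10:103367808-103419379, 13 exons). It measured 104, 96.6 and 111 CPM in WT and 53.4, 49.4 and 43.3 CPM in cKO. No cKO library came near the WT range. The log2 fold change was -1.10 (SE 0.0965, adjusted p = 0.00133), and every setting tried kept the call, with an adjusted p of 0.0142 at most. Slc6a17, its close relative on synaptic vesicles, measured 133, 132 and 130 CPM in WT and 150, 110 and 103 CPM in cKO, with cKO A above the WT range and a change of -0.13 that did not pass (adjusted p = 0.550).

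Slc6a4, the serotonin carrier, was scarce (Entrez 15567, plus strand of chr11:76998597-77032343, 14 exons). It had 15, 14 and 9 counts in the WT libraries A, B and C and 3, 2 and 1 counts in the cKO libraries. The summed counts of 38 and 6 give a WT level 5.93-fold that of cKO per counted fragment (exact 95% interval 2.49 to 17.2, counting error only). edgeR gave a log2 fold change of -2.55 (SE 0.542, adjusted p = 0.0188). The call was lost without WT A (adjusted p = 0.0657), without WT B (0.0717) and without cKO B (0.0787). Slc6a4 reached the limit of 0.5 CPM only in WT at E16.5 (mean 0.690 CPM, at most 0.188 CPM in the other groups). The filter took it in through the group where it is high, so the call is not independent of the filter. Slc18a2 had 0.584, 0.639 and 0.154 CPM in WT and 0.213, 0.207 and 0.066 CPM in cKO, overlapping groups that did not pass (adjusted p = 0.210).

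Cationic carriers of family Slc7 had 1 of 5 called. Slc7a14, a lysosomal member (Entrez 241919, minus strand of chr3:31202854-31310319, 8 exons), measured 28.5, 27.1 and 20.9 CPM in WT and 14.51, 12.2 and 5.81 CPM in cKO. The groups were separate, and cKO C was the lowest. The log2 fold change was -1.23 (SE 0.291, adjusted p = 0.0273), with an adjusted p of 0.0837 without WT A, 0.0992 without WT B, 0.0838 without cKO B, 0.0563 with no filter on low counts and 0.0656 in the fit of all 12 libraries. The other 4 cationic carriers changed by -0.40 to 0.10, and 0 of them passed in edgeR or DESeq2, with 1 (Slc7a4) at an unadjusted p under 0.05. Of the 6 tested light chains of heteromeric exchangers 0 passed in either tool, 1 (Slc7a6) had an unadjusted p under 0.05, and changes lay between -0.36 for Slc7a8 and 0.29 for the cystine and glutamate exchanger Slc7a11. Slc7a6, which exchanges arginine for glutamine, had all cKO libraries above WT (78.2 ± 3.89 CPM in WT and 89.9 ± 4.89 CPM in the cKO libraries; SD, n = 3; change 0.19, adjusted p = 0.112).

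The sodium-coupled neutral carriers of Slc38 are the most abundant, and 0 of 10 passed in edgeR at E16.5. Their changes lay between -0.66 and 0.34, of which 8 were below 0 (7 with library totals alone), and 4 had an unadjusted p under 0.05. Slc38a1 measured 507, 487 and 507 CPM in WT and 416, 415 and 463 CPM in cKO. These groups did not overlap (change -0.22, SE 0.0663, adjusted p = 0.0596). Slc38a2 measured 328, 339 and 317 CPM in WT and 267, 303 and 299 CPM in cKO, again without overlap (change -0.19, adjusted p = 0.109). Slc38a9, the lysosomal arginine sensor of mTORC1, went the other way, with 57.2 ± 5.26 CPM in WT against 72.9 ± 7.12 CPM in cKO (SD, n = 3; change 0.34, adjusted p = 0.0522). DESeq2, which called 6.7% of all genes higher and 11.3% lower at this age, also called Slc38a1 (adjusted p = 0.0345), the glutamine carrier Slc38a3 (0.0437) and Slc38a9 (0.0349). Both tested members of Slc36 had every cKO library above the WT libraries, and neither passed. These are Slc36a1 (change 0.24, edgeR adjusted p = 0.171) and Slc36a4 (change 0.09, edgeR adjusted p = 0.463). For Slc36a4 the lowest cKO library had 38.0 CPM and the highest WT library 37.6 CPM.

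In the authors' deposited table for E16.5, 3 of 44 transporters were higher and 9 lower in cKO at an adjusted p under 0.05, where 6.26% of its genes were higher and 10.8% lower. All 8 genes called by edgeR are among these in the authors' deposited table, which adds Slc38a9 (0.32), Slc17a6 (-0.48), Slc38a1 (-0.22) and Slc38a3 (-0.46).

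**Figure D3:**
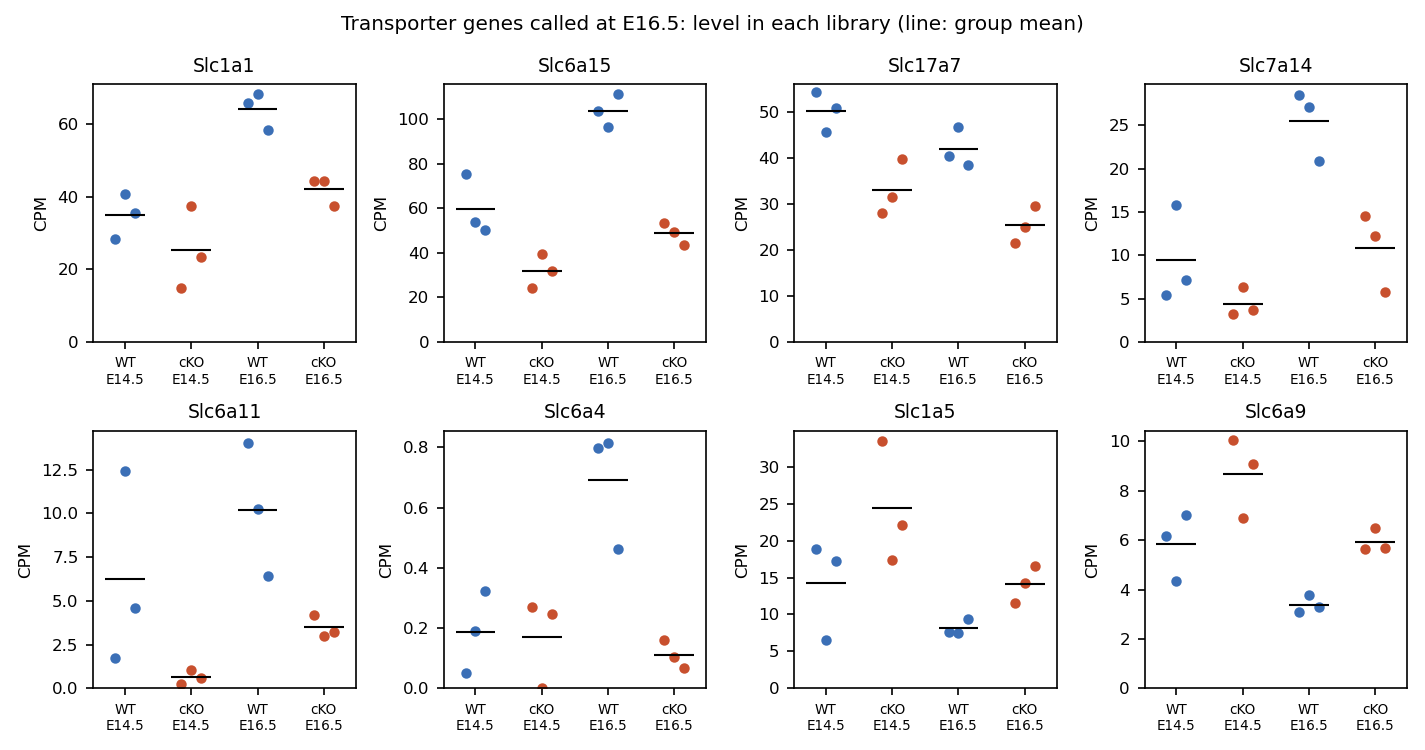
Level in CPM of the 8 transporters called at E16.5 in each library (points, blue for WT and orange for cKO), with the mean of each group as a line and each axis starting at 0. At E16.5 the WT and cKO points do not overlap in any of the 8 panels, and Slc6a15 has 96.6 to 111 CPM in WT against 43.3 to 53.4 CPM in cKO.

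The promoters of these genes show what kind of sequence they begin from. CG dinucleotides cluster in the islands that mark many promoters and at which lysine 4 of histone H3 is commonly methylated, so they are set in capitals in the 250 bases before the annotated start of 4 called transporters (RefSeq, GRCm38.p6, plus strand in each case). Slc1a1 (chr19:28834885-28835134) and Slc6a11 (chr6:114130991-114131240) hold 27 and 25 CG, while Slc17a7 (chr7:45163671-45163920) and Slc6a9 (chr4:117835008-117835257) hold 9 each.
Slc1a1: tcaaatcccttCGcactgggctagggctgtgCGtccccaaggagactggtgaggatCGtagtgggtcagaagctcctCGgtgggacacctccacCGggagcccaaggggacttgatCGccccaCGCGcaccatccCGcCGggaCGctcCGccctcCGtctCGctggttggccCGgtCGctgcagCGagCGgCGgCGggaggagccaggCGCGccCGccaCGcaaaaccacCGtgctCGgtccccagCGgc
Slc6a11: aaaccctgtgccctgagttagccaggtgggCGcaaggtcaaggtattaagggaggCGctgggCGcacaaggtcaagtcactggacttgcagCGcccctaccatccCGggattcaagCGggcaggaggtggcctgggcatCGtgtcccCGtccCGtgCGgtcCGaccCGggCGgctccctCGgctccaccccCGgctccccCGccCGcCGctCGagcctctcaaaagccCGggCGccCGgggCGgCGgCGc
Slc17a7: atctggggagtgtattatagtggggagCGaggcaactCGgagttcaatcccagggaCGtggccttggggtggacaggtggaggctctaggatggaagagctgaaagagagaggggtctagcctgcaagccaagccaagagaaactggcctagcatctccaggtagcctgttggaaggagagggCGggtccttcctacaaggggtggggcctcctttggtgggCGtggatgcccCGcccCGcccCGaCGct
Slc6a9: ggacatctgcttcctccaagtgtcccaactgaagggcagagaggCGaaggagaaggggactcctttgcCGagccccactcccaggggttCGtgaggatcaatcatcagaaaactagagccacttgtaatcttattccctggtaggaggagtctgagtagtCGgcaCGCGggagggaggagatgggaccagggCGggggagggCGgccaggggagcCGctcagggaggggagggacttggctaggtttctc
Of the called transporters with a promoter near the deposited start, these 4 hold the most and the fewest CG. Slc6a4 (18 CG) and Slc7a14 (15 CG) lie between them. The 9 CG of Slc17a7 and of Slc6a9 are still above the median of 6 over all promoters. Slc6a9 has 3 RefSeq promoters, of which the one nearest the deposited start is shown. Of the 67 transporters 47 had a RefSeq promoter, and for 42 it lay within 100 bases of the start in the deposited tables. The median count of CG was 11.5 in these 42 and 6 over all 32851 promoters of that length. It was 14 in the 30 of tested transporters and 4.5 in the 12 of transporters not tested. The 5 promoters of genes that fell at E16.5 had a median of 18 CG, and the 24 of tested genes not called 13.5. The motif TGATGNAA, bound by ATF4 when amino acids are scarce, was searched on both strands and occurred in 3 of the 42 (7.14%), those of Slc6a21, Slc7a7 and Slc7a11, and in 3.45% of all promoters. A match describes these letters only.

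At E14.5 0 of the 44 transporters passed in edgeR, where 1.93% of all genes did, with 1.6% of all genes lower. At an unadjusted p under 0.05 there were 15, where 20.0% of all genes had one. DESeq2 called 8 of the 41 transporters to which it gave an adjusted p, all lower in cKO, among them Slc6a11, Slc6a15, Slc7a8, Slc17a5, Slc17a6, Slc17a7 and Slc18a2. Of all genes with an adjusted p it called 6.59% lower and 1.91% higher. The authors' deposited table has 7 of 41 lower and 0 higher, without Slc18a2, where 6.22% of its genes were lower and 1.68% higher. The median log2 fold change was -0.09, with 0.02 for all genes. The cKO libraries were all under the WT libraries for 10 transporters (22.7%, against 14.6% of all genes) and above them for 3 (6.82%, against 11.9%), which are Slc7a3, Slc36a1 and Slc38a4, named after their values were seen.

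The genes called at E16.5 had these values at E14.5. Slc6a15 measured 75.4, 53.6 and 50.0 CPM in WT and 24.0, 39.5 and 31.7 CPM in cKO. These groups did not overlap (change -0.91, SE 0.213, adjusted p = 0.0799). Slc17a7 measured 54.2, 45.7 and 50.8 CPM in WT and 27.9, 31.4 and 39.7 CPM in cKO. It too was separated (change -0.60, SE 0.143, adjusted p = 0.0814). Slc1a1 measured 28.4, 40.7 and 35.5 CPM in WT and 14.97, 37.4 and 23.4 CPM in cKO, with cKO B inside the WT range (change -0.47, adjusted p = 0.425). Slc1a5 measured 18.8, 6.51 and 17.2 CPM in WT and 33.5, 17.4 and 22.1 CPM in cKO (change 0.79, adjusted p = 0.322). For this glutamine exchanger WT B was the lowest and cKO A, the library high in meningeal, endothelial and red blood cell markers, the highest. Slc6a9 changed by 0.58 (adjusted p = 0.234) and Slc7a14 by -1.10 (adjusted p = 0.227), and the groups of both overlapped. Slc6a4 had 11 counts in the WT and 11 counts in the cKO libraries.

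Slc6a11 and Slc18a2, carriers of GABA and of monoamines, varied widely between the E14.5 libraries. Slc6a11 measured 1.75, 12.4 and 4.57 CPM in WT and 0.269, 1.05 and 0.616 CPM in cKO (change -3.29, SE 0.789, adjusted p = 0.0836). WT B was the highest library, and the groups did not overlap. Slc18a2, which loads monoamines into vesicles, had 15, 204 and 99 counts in WT A, B and C and 4, 0 and 4 counts in cKO. Per counted fragment the summed WT level was 39.1-fold that of cKO (exact 95% interval 19.6 to 91.3, counting error only). WT B held 204 of the 318 WT counts, and without it the ratio was 19.4 (9.52 to 46.0). For this gene edgeR gave an adjusted p of 0.0717, or 0.0446 without WT A. Only its WT group at E14.5 reached the limit of 0.5 CPM (mean 6.07 CPM, at most 0.459 CPM in the other groups). The filter thus took Slc18a2 in through the group where it is high. The 8 GABAergic and ventral markers ran in the same order of libraries within WT, with sums of 67.2, 307 and 124 CPM in WT A, B and C and 22.6, 90.3 and 69.3 CPM in cKO, all 8 lower in cKO, 0 called by edgeR and 6 with an unadjusted p under 0.05. The 7 markers of astrocytes and oligodendrocytes were scarcer, with sums of 11.4, 37.5 and 17.03 CPM in WT A, B and C and 22.6, 8.99 and 6.90 CPM in cKO. WT B was again the highest, and of the 6 tested 5 had a change below 0 (median -1.49), with 0 called by edgeR and 3 at an unadjusted p under 0.05. Without WT B and cKO A the change of Slc6a11 was -1.98 (adjusted p = 0.0950). The part of these cells in the differences was not tested.

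**Figure D4:**
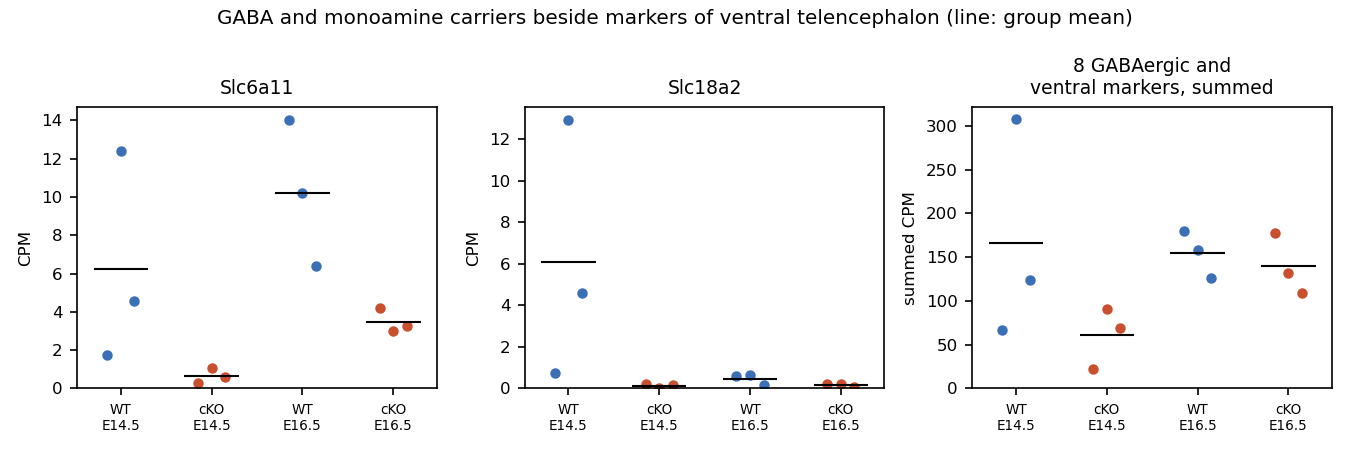
Level in CPM of Slc6a11 and Slc18a2 in each library, beside the summed level of 8 markers of GABAergic and ventral cells (points, blue for WT and orange for cKO, lines at group means, axes from 0). WT B at E14.5 is the highest point of its group in all 3 panels, with 12.4 CPM for Slc6a11 and 307 CPM for the markers, while at E16.5 the marker sums of WT and cKO overlap.

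Among the E14.5 libraries 8 of the 44 transporters were highest in cKO A, 16 in WT B and 4 to 7 in each of the others. The same count was not made over all genes. The library cKO A is the one high in meningeal, endothelial and red blood cell markers and low in neuronal ones. For Slc7a6, Slc6a9, Slc7a5, Slc17a9 and Slc1a5 it stood 1.02 to 1.51 times as high as the next library. The other 3, named after their values were seen, stood further apart. Slc7a11 measured 12.3 CPM there and 1.19 to 5.30 CPM in the other 5 libraries of that age, Slc6a13, a GABA carrier known from meninges and liver, 4.52 CPM and at most 1.85 CPM elsewhere, and Slc38a4 3.45 CPM and at most 1.25 CPM elsewhere. At E14.5 0 of these 3 passed in edgeR or DESeq2 or had an unadjusted p under 0.05, and the part of meningeal or other cells was not tested. Of the 4 transporters on the X chromosome 3 were tested, and they are given because the E14.5 groups differ in sex. Slc7a3, a cationic carrier, had 0.580 ± 0.0646 CPM in WT against 1.32 ± 0.224 CPM in cKO (SD, n = 3; change 1.21, adjusted p = 0.106), and with sex as a term in a fit of 12 libraries the change was 0.56 (adjusted p = 0.675). Slc6a8 (change -0.01) and Slc38a5 (change -0.25) did not pass. The fit of 12 libraries without a sex term called 6 of the 44 transporters at E14.5, and 1329 of all genes. With that term 0 of the 44 passed, and 126 of all genes. Adding sex at E16.5 kept all 8 calls, with 1634 of all genes called in place of 2361.

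Whether the effect of the cKO differed between the ages was tested in 1 fit of the 12 libraries. For 0 of the 44 transporters did the difference pass in edgeR or DESeq2, as for 0.0% of all genes in edgeR. At an unadjusted p under 0.05 there were 2, Slc6a4 and Slc18a2, where 2.21% of all genes had one. Each of these 2 passed the limit of 0.5 CPM only through the WT group where it is high. Calls at E16.5 that were missing at E14.5 are therefore not shown to belong to 1 age.

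With age in WT, 1 transporter passed, higher at E16.5, where 2.1% of all genes did and 0.746% in that direction. Slc6a15 rose from 59.7 ± 13.7 CPM at E14.5 to 104 ± 7.28 CPM at E16.5 (SD, n = 3), by 0.80 on the log2 scale (SE 0.180, adjusted p = 0.0481). The call held in 1 of 6 fits that left out 1 WT library, that without WT B of E14.5. The adjusted p was 0.0878 without WT A and 0.176 without WT C of E14.5, and 0.171, 0.139 and 0.0892 without WT A, B and C of E16.5. DESeq2 called 6 transporters higher at the later age (Slc1a1, Slc1a4, Slc6a6, Slc6a15, Slc7a2 and Slc7a14) and 2 lower (Slc6a9 and Slc18a2), of 41 with an adjusted p, where it called 6.78% of all genes higher and 7.13% lower. Slc7a14 went from 9.47 ± 5.55 to 25.5 ± 4.05 CPM and Slc1a1 from 34.9 ± 6.16 to 64.1 ± 5.18 CPM (SD, n = 3), with no overlap between the ages for either, as in 17.0% of all genes toward E16.5 (adjusted p = 0.0662 for each). Slc6a9 went from 5.84 ± 1.35 to 3.38 ± 0.358 CPM (adjusted p = 0.0579). Age and the separate count tables of the 2 ages cannot be told apart.

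Genes that work with these carriers were counted from lists of related genes, where rose and fell mean an adjusted p under 0.05 in edgeR. Of all genes tested 15.2% passed at E16.5, with 5.82% higher and 9.37% lower, and 1.93% passed at E14.5. The lists are short, and whether their shares differ from those of all genes was not tested. Of 10 tested partner chains and other amino acid carriers 1 fell at E16.5: Slc25a12, the mitochondrial aspartate and glutamate exchanger, which measured 60.9, 55.9 and 61.6 CPM in WT and 36.5, 40.7 and 38.9 CPM in cKO (change -0.63, adjusted p = 0.00299). Slc3a2, the heavy chain that pairs with most Slc7 light chains, changed by -0.07 and did not pass. Of 11 enzymes of glutamate, glutamine and GABA metabolism the aspartate aminotransferase Got1 rose (0.33) and its mitochondrial counterpart Got2 (-0.47) and the GABA-degrading enzyme Aldh5a1 (-0.43) fell. Of 5 tested enzymes of amine and acetylcholine metabolism Tph1, which begins serotonin synthesis, rose by 2.81, from 0.796, 0.697 and 1.28 CPM in WT to 9.46, 6.27 and 4.03 CPM in cKO. Maoa, which degrades serotonin, measured 24.5, 28.3 and 28.0 CPM in WT and 13.7, 14.1 and 14.3 CPM in cKO (change -0.95, adjusted p = 0.00192) and fell at E14.5 too (change -0.73, adjusted p = 0.0249). Of 16 tested genes of amino acid sensing Sesn2, a leucine sensor, rose by 0.95 and Rragd, a lysosomal GTPase of the mTORC1 pathway, fell by 0.83.

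The 23 transporters that were not tested had few counts or none. In all 12 libraries 5 of them had 0 counts (Slc6a18, Slc6a21, Slc7a12, Slc7a15 and Slc36a3), and the largest total was 68 counts, for Slc18a1. They include the dopamine carrier Slc6a3 with 8 counts, the noradrenaline carrier Slc6a2 with 2 and the vesicular acetylcholine carrier Slc18a3 with 6. Nearest below the limit of 0.5 CPM, which was set on library totals, were Slc18a1 with a highest group mean of 0.403 CPM and Slc7a9 with 0.390 CPM, and nearest above it Slc6a7 with 0.552 CPM and Slc38a11 with 0.579 CPM. Slc7a9, a cystine carrier of the kidney, had 0 counts in all 3 WT libraries at E16.5 and 12, 6 and 3 counts in cKO A, B and C. With the WT group set to 3 counts in all, the cKO level per counted fragment was 7.48-fold that of WT. This ratio takes the cKO counts as exact, so it is no lower bound.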

How the data were processed

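The deposited values are raw counts per gene from featureCounts 1.5.2, which took read pairs on the reverse strand over mm10 RefSeq exons, per the file headers. The authors aligned reads with STAR 2.5.2b, per the submitters' processing notes. The authors also deposited, for each age, a DESeq2 1.14.1 table of log2 fold changes of WT over cKO and their p-values (version per the submitters' processing notes), whose sign was turned here. The 12 per-sample columns of those tables were not used. Exon lengths in bases, used for TPM, are those deposited beside the counts.

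Counts were tested with edgeR 4.0.16 (R 4.3.3, limma 3.58.1): TMM scaling, genes with a mean of 0.5 CPM in any group, a robust quasi-likelihood fit, adjustment over 15542 genes and a threshold of 0.05. Each age was fitted on its 6 libraries by genotype alone, and the age comparisons on 12 libraries in 4 groups. CPM use TMM library sizes, while the limit of 0.5 CPM and ratios of summed counts use library totals. Alternatives were other scalings and filters, DESeq2 1.42.0, leaving out libraries, sex as a term and a block by title number. The code was tested on simulated data. Members, gene lists and tests were chosen with earlier results of these data known. Named with values are called members, the 3 highest of each family in WT, those nearest the limit and all tested members of families with 5 or fewer; others were named after their values were seen. Of the lists, Slc66a1, Castor1, Castor2 and Hbb-bt were not found under those names. No transporter shares exon bases with another gene on its strand. Markers of intermediate progenitors, endothelium, red blood cells, microglia and Cajal-Retzius cells had 0 called in edgeR at either age and 0 with an unadjusted p under 0.05. A few genes of the lists are not reported here.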

Additional observations from a re-analysis of the deposited data

How the results depend on the processing

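At E14.5, in place of 0 transporters lower, DESeq2 gave 8, the fit of 12 libraries 6, and leaving out WT B with cKO A 1. All genes called went from 300 to 1243, 1329 and 612 in these settings. Leaving out single libraries gave 0 to 1 lower and 0 higher, with 5 to 331 of all genes called. At E16.5, in place of 2 higher and 6 lower, the fit of 12 libraries gave 1 higher and 3 lower (all genes 840 and 1080 in place of 904 and 1457). Leaving out single libraries gave 0 to 2 higher and 2 to 9 lower, with 982 to 2847 of all genes called. With no low-count filter 4 were higher, counted with transporters outside the 44. Among the 44 that setting gained 1 call and lost 1, that of Slc7a14. For age in WT, in place of 1 higher and 0 lower, library totals gave 0 higher, DESeq2 6 higher and 2 lower (all genes 972 and 1021 in place of 116 and 210), and leaving out single libraries 0 to 9 higher and 0 to 2 lower, with 1 to 2214 of all genes called. Over the 44 transporters, all comparisons and all alternatives, 28 values lost their call (8 genes), 70 gained one (27 genes) and 0 called values changed sign. With the replicate block of the first title number, 1 transporter was higher and 8 lower at E14.5, and 5 higher and 16 lower at E16.5; all genes called went from 300 to 1325 and from 2361 to 4823. Deviations from the group means of libraries with the same number correlated at 0.236, 0.281 and -0.01 at E14.5 and at 0.230, 0.168 and 0.0767 at E16.5. Between libraries with different numbers they correlated at -0.278 to 0.0898 at E14.5 and at -0.213 to 0.0791 at E16.5. The labels do not say what the number marks, so the block was not used for the results, which ignore any pairing by it. The cause of these differences was not tested. With 3 libraries a group, genes near 1 CPM rest on few counts.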
